A study of Mus musculus with 6 samples.

Results

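Long clusters of H3K27ac peaks in differentiated C2C12 cells are described here. C2C12 is a mouse myoblast line that fuses into myotubes in culture, and H3K27ac, histone H3 acetylated at lysine 27, marks active promoters and enhancers. The clusters were chosen on the peak list of cells after 72 h of differentiation. Its peaks were stitched across gaps of up to 12.5 kb, and a cluster was kept if at least 10 kb of it lay under 72 h peaks. Of 23013 stitched clusters at 72 h, 1241 met this rule. The 72 h length chose the clusters, so every value of that length, and every ratio made with it, is a description. The lists of proliferating cells and of cells after 36 h of differentiation were not used in the choice, and the length under their peaks was measured inside the span of each 72 h cluster.

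Chromatin immunoprecipitation sequencing (ChIP-seq) was carried out in proliferating C2C12 myoblasts, at 36 h of differentiation and at 72 h of differentiation, with an H3K27ac library and an input library at each of the 3 stages. Each H3K27ac library was built from DNA pooled over 4 ChIP assays, so each stage had 1 library. No agent or genotype other than the stage is named in the labels of these samples, although the series concerns a role in myogenesis of TAp63, a member of the p53 family of transcription factors. With 1 library per stage the spread between cultures was not measured, no test between stages was made, and intervals cover counting error over clusters only. A culture is a mixture of cells, and more acetylated cells cannot be told apart from more acetylation per cell.

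H3K27ac is placed by the acetyltransferases p300 and CBP, which transcription factors recruit to enhancers and promoters. Runs of closely spaced, heavily acetylated enhancers, often called super-enhancers or stretch enhancers, tend to lie near genes that define a cell type. In skeletal muscle the myogenic factors MyoD and myogenin, together with MEF2 proteins, recruit these acetyltransferases as myoblasts leave the cell cycle and turn on the contractile programme. The clusters below were defined by length under peaks alone and not by signal rank. Positions use mouse build mm9 with the first base as 1. No gene was assigned to a cluster, and marker genes of muscle were therefore not examined.

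The peak lists held 57101 peaks in proliferation, 89717 at 36 h and 97144 at 72 h, covering 31.3, 56.0 and 63.7 Mb. As a ratio to proliferation, ChIP depth as recovered from the fold and p of the peaks came to 1.19 at 36 h and 1.096 at 72 h. The local background at the peaks, as a multiple of the genome background of the same library, had a median over the long clusters of 1.94 in proliferation, 1.06 at 36 h and 1.16 at 72 h. A higher background raises the signal needed for a call. The lengths obtained with depth, signal and background set to those of proliferation are given with the other settings.

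The 1241 clusters were extended domains made of many peaks rather than single wide ones. They had a median of 15.1 kb under 72 h peaks, with quartiles of 12.1 and 21.1 kb and a highest value of 124 kb. Their spans had a median of 45.4 kb, from 11.6 to 249 kb, of which a median of 36.5% lay under peaks. A cluster held a median of 19 peaks at 72 h, from 4 to 134, and its widest peak, with a median of 3402 bp, took a median of 20.4% of the length. Together the clusters held 35.9% of all length under 72 h peaks, 36.6% of that under 36 h peaks and 30.9% of that under proliferation peaks. At the lower bound, the shortest 3 clusters had 10.011 kb on chromosome 13 from 51973926, 10.027 kb on chromosome 11 from 121533624 and 10.034 kb on chromosome 14 from 70702691. The nearest 3 that missed it had 9.999 kb on chromosome 8 from 97653133, 9.999 kb on chromosome 3 from 122840073 and 9.988 kb on chromosome 3 from 52649581.

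The same spans held less acetylated length in earlier stages, and most of the difference from proliferation was already present at 36 h. Summed over the clusters, proliferation peaks took 9.68 Mb, 36 h peaks 20.5 Mb and 72 h peaks 22.9 Mb. The median cluster had 6.47, 13.5 and 15.1 kb at these stages. The median ratio was 2.52 for 72 h over proliferation, 2.29 for 36 h over proliferation and 1.11 for 72 h over 36 h. The list as a whole covered 2.03 times as much at 72 h, and 1.79 times as much at 36 h, as in proliferation. No cluster lacked a peak at 36 h, and 54 had none in proliferation.

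**Figure D1:**
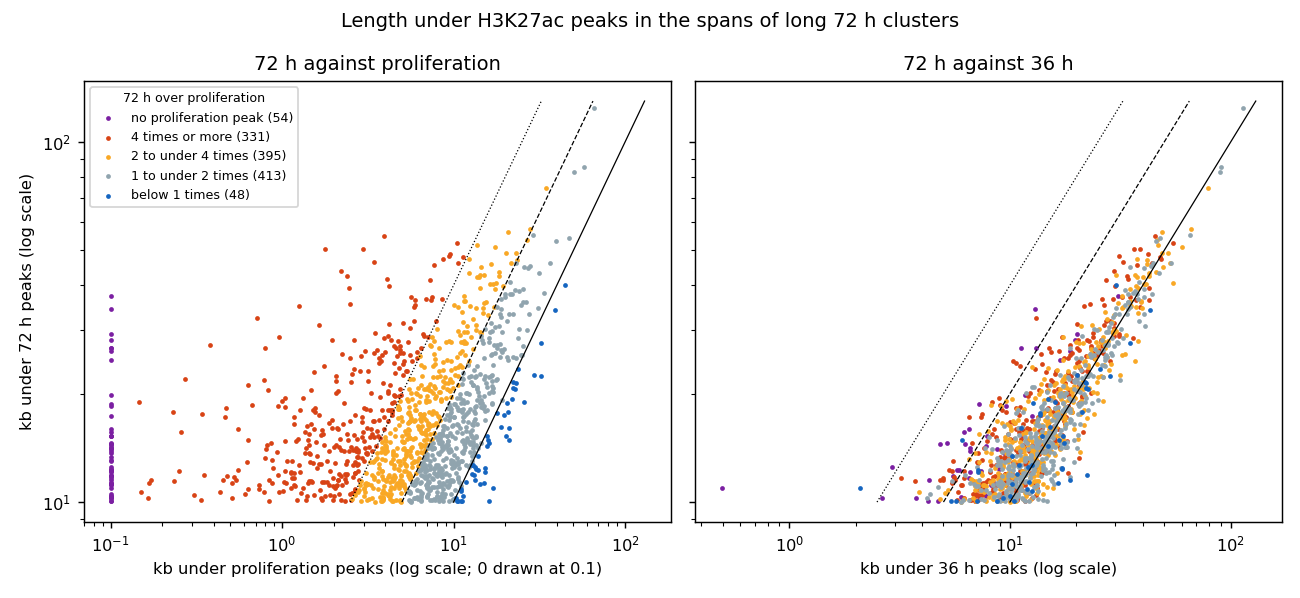
Length under H3K27ac peaks in the span of each of the 1241 long clusters, in kb on log scales: 72 h on the y axis of both panels, with proliferation on the x axis at left and 36 h at right. Solid, dashed and dotted lines mark ratios of 1, 2 and 4, colours give the class of 72 h over proliferation, and clusters with no proliferation peak are drawn at 0.1 kb. Clusters spread widely to the left of the solid line against proliferation and lie close to it against 36 h.

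By growth from proliferation the clusters ranged from those already long at that stage to those with no peak in it. The 72 h length was at least 2 times the proliferation length in 780 clusters (62.9%, exact 95% interval 60.1 to 65.5%), compared with 60.2% of all 72 h clusters. It was at least 4 times in 385 clusters (31.0%, 28.5 to 33.7%), compared with 45.0% of all 72 h clusters. It was below the proliferation length in 48 clusters (3.87%, 2.87 to 5.10%), compared with 6.24% of all. Of the others, 413 lay between 1 and under 2 times. The 54 clusters with no proliferation peak were 4.35% of the long clusters, whereas 35.9% of all 72 h clusters had none. Clusters without a proliferation peak were counted at 2 times or more and at 4 times or more above. They were 54 of the 385 long clusters at 4 times or more, but 8260 of the 10347 of all 72 h clusters there. The shares above therefore hold such clusters to unlike degrees. Since the contrast contains the length that chose the clusters, nothing is read from these shares about how the clusters differ from others.

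The ratio depended on the list that chose the clusters. Clusters of at least 10 kb chosen on the 36 h list, which enters neither side of the ratio, numbered 1057 and had a median 72 h over proliferation ratio of 2.17, with 54.9% at 2 times or more and 5.87% below 1. The 342 clusters of at least 10 kb chosen on the proliferation list had a median ratio of 1.14, with 4.09% at 2 times or more, none at 4 times or more and 121 (35.4%) below 1. None of these 342 was without a 72 h peak and 10 of them had less than 0.5 times their proliferation length at 72 h. These ratios are set in part by the choice, since a cluster chosen for its proliferation length has a large denominator and was measured inside the span of proliferation peaks.

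**Figure D2:**
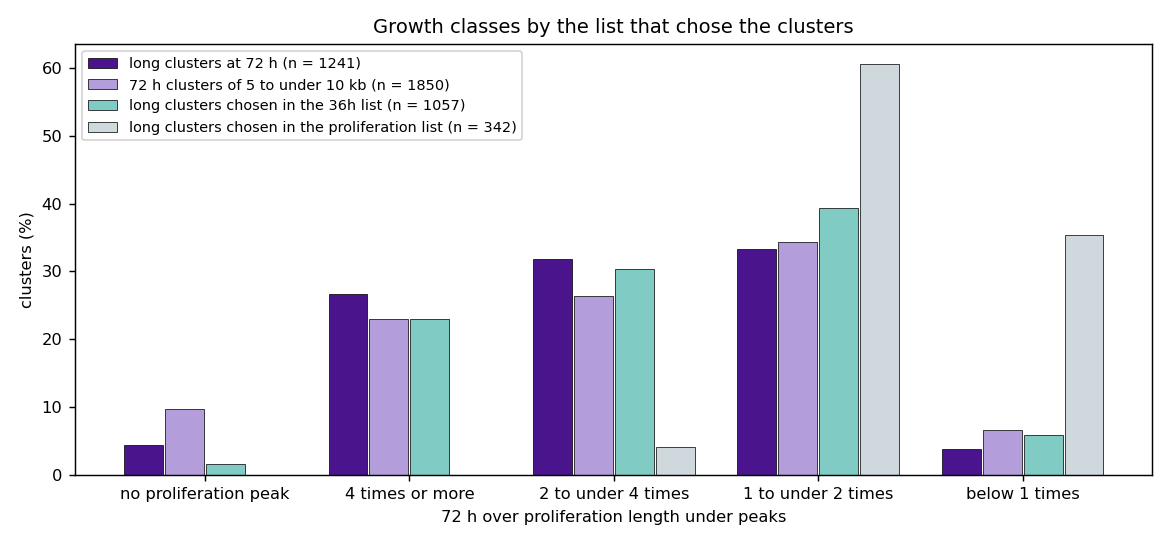
Share of clusters in each class of 72 h over proliferation length, for the 1241 long clusters at 72 h, the 1850 clusters of 5 to under 10 kb at 72 h, the 1057 long clusters chosen on the 36 h list and the 342 chosen on the proliferation list. The choice on the proliferation list puts 60.5% of clusters between 1 and under 2 times, and no cluster at 4 times or more.

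The comparison of 36 h with proliferation does not use the length that chose the clusters, although the spans are those of the 72 h peaks. It still depended on the choosing list. The median 36 h over proliferation ratio was 2.29 in the 1241 clusters and 1.11 in the 342 chosen on the proliferation list. Lengths at 36 h and 72 h also went together across the clusters, so the values below are descriptions. The 36 h length was at least 2 times the proliferation length in 713 clusters (57.5%, 54.7 to 60.2%), compared with 43.9% of all 72 h clusters that had a peak at either stage. The corresponding share was 49.6% (47.3 to 51.9%) in the 1848 clusters of 5 to under 10 kb. The 36 h length was below that of proliferation in 76 clusters (6.12%), compared with 21.6% of all and 14.9% of those of 5 to under 10 kb. The summed 36 h over proliferation ratio was 1.49 in clusters of 1 to under 2 kb, 1.80 at 5 to under 10 kb, 2.03 at 15 to under 20 kb and 2.28 at 30 kb or more. The summed 72 h over 36 h ratio was 1.39 in clusters of 1 to under 2 kb and 1.07 at 30 kb or more, where the bins rest on the 72 h length itself.

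Across the 1241 clusters, the length at 72 h had a Spearman rho of 0.82 with the length at 36 h and 0.41 with that in proliferation. These are descriptions over clusters that share the same 3 libraries.

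In time, growth in the first 36 h followed by a steady length was the most frequent course, as it was over all 72 h clusters. The second step contains the 72 h length that chose the clusters. A step was counted as a change if the length moved by at least 1.5 times. In 781 clusters (62.9%) the length was up by that factor at 36 h and within it from 36 h to 72 h, compared with 36.4% of all 72 h clusters. In clusters of 5 to under 10 kb this share was 46.7%. The 781 clusters had medians of 5.48, 15.3 and 15.8 kb at proliferation, 36 h and 72 h. A further 261 (21.0%) stayed within 1.5 times at both steps, as did 5235 of the 19416 of all 72 h clusters with a peak at either earlier stage, over which these shares of all clusters are taken. In 132 (10.6%, with 17.0% of all) the length was up at both, with medians of 1.52, 7.50 and 14.6 kb over the 3 stages. In 45 clusters (3.63%, with 6.22% of all) the length changed little to 36 h and was up at 72 h. Measured against the minimum used for the choice, 319 clusters had at least 10 kb at all 3 stages, 636 had it at 36 h and 72 h but not in proliferation, 267 only at 72 h, and 19 in proliferation and at 72 h but not at 36 h. At 36 h, 955 spans (76.95%) held at least 10 kb. Over all 72 h clusters 1010 did (4.39%), these 955 included. In proliferation 338 did (27.2%), and 361 of all (1.57%), these 338 included. Both contrasts follow in large part from the choice, since every cluster outside the 1241 had under 10 kb at 72 h.

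Whether clusters lengthened or shortened between 36 h and 72 h depended on the choice. The 72 h length was below that at 36 h in 345 of the 1241 clusters (27.8%, 25.3 to 30.4%), compared with 14.8% of all 72 h clusters, but in 54.4% of the clusters chosen on the 36 h list. At least 1.5 times the 36 h length was reached at 72 h by 188 clusters (15.2%), compared with 44.5% of all. This share varied with the class of growth from proliferation. It was 31 of the 54 clusters with no proliferation peak, 74 of the 331 others at 4 times or more, 48 of 395 at 2 to under 4 times, 29 of 413 at 1 to under 2 times and 6 of 48 below 1. The share and the classes both have the 72 h length as numerator. Their order is therefore set in part in advance and is a description.

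Added length lay both in 72 h peaks that touched no proliferation peak and in the further parts of 72 h peaks that touched one. Any overlap counted as touching, so the split rests on where the peak calls begin and end. It does not separate widening of a peak from a new peak beside it. Of the 72 h length in the clusters, 38.4% was also under a proliferation peak, 22.1% lay beyond it in a 72 h peak that touched one, and 39.5% lay in 72 h peaks that touched none. Over all 72 h clusters these shares were 39.8%, 19.4% and 40.8%. Over proliferation, 36 h and 72 h, the spans held 14720, 25580 and 26309 peaks, with mean widths of 657, 801 and 869 bp. From 36 h to 72 h the count of peaks differed little while the mean width differed more. Of the 72 h peaks in the clusters, 16605 (63.1%) touched no proliferation peak, compared with 59.8% of all 72 h peaks. Of the 72 h length that was not under a proliferation peak, 66.5% was already under a 36 h peak, compared with 57.3% over all 72 h clusters. Of the proliferation length in the spans, 9.20% was no longer under a peak at 72 h, compared with 10.96% over all 72 h clusters.

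**Figure D3:**
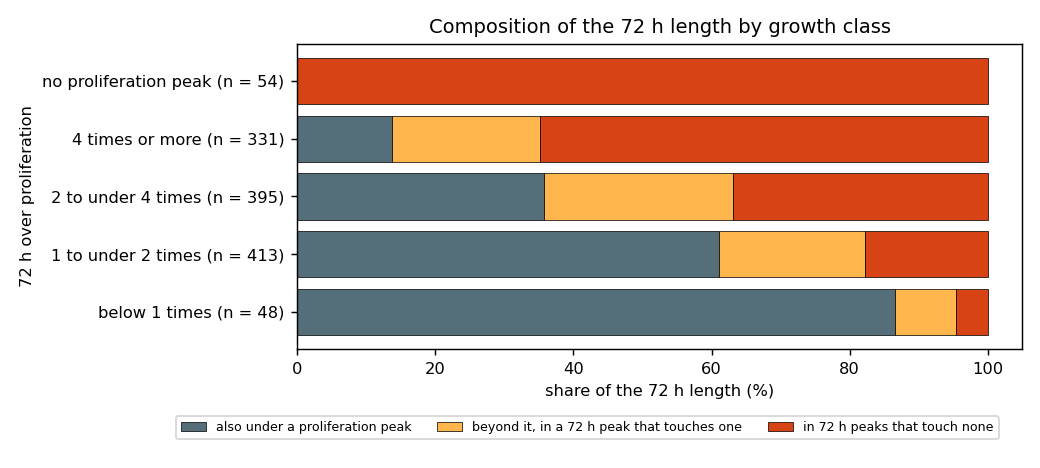
Composition of the summed 72 h length in the long clusters, by class of 72 h over proliferation. Bars show the share under a proliferation peak too, the share beyond it in 72 h peaks that touch one, and the share in 72 h peaks that touch none. The last of these is 4.55% below 1 times and 64.8% in clusters of 4 times or more with a proliferation peak.

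The mix of both kinds of added length differed along the classes of growth. In clusters at 1 to under 2 times, 21.2% of the 72 h length lay beyond a proliferation peak in a 72 h peak that touched one. Another 17.8% lay in 72 h peaks that touched none. At 2 to under 4 times the shares were 27.4% and 36.9%, and at 4 times or more they were 21.4% and 64.8%. Peak numbers in the median cluster followed this order, with 18 peaks at 72 h and 15 in proliferation in the first of these classes, 19 and 11 in the next, and 20 and 5 in the last. The span and the 72 h length did not follow it, with median 72 h lengths of 14.7, 16.0 and 15.5 kb. These classes rest on the lengths themselves, so the order of the peak numbers is a description.

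Much of the added length lay between peaks that existed in proliferation. In the 1165 clusters with at least 2 proliferation peaks, 12.9 Mb of the 72 h length was not under a proliferation peak, and 69.0% of it lay between the outermost proliferation peaks of the span. That stretch made up 77.2% of the spans. The 2 shares cannot be read as densities, because a span begins and ends on a 72 h peak and no added length can fall under the proliferation peaks inside the stretch. In proliferation the peaks of a span were often separate under the same stitching: 606 long clusters were touched by 1 stitched cluster of proliferation peaks, 436 by 2 and 145 by 3 or more, with a highest number of 8. At 36 h, 983 were touched by 1, 216 by 2 and 42 by 3 or more. Many 72 h clusters thus spanned proliferation peaks that were too far apart to be stitched together in proliferation.

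Peak height also differed with the class of growth, as a description, since it comes from the same peaks as the length. Height was taken as the recovered fragments at the strongest summit of the span, scaled to the proliferation depth. In clusters at 4 times or more with a proliferation peak, the median strongest peak had 40 fragments in proliferation, 64.5 at 36 h and 77.6 at 72 h. It was 57, 71.2 and 84.9 fragments at 2 to under 4 times and 71, 70.4 and 83.96 at 1 to under 2 times. In clusters below 1 it was 80.5, 62.4 and 75.7 fragments. The 72 h summit was the higher in 321 of 331, 372 of 395, 306 of 413 and 18 of 48 clusters of these 4 classes. Heights were taken in the long clusters only, so these counts cannot be set against a share over all 72 h clusters. Over 28900 regions called at every stage, the depth-scaled signal over background at 72 h was 1.18 times that of proliferation. In the 54 clusters with no proliferation peak the median was 47.8 fragments at 36 h and 64.8 at 72 h, below the other classes at both stages. Among the 4 classes with a proliferation peak, the median summit in proliferation was lower where the ratio of lengths was higher.

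Below the 5 longest, the clusters of rank 6 to 15 by 72 h length had 50.5 to 56.4 kb under 72 h peaks and ranged from nearly unchanged to nearly new. At chr12:81890986-81988652, rank 15, the length was 2.98, 38.9 and 50.5 kb at proliferation, 36 h and 72 h, with 6, 66 and 66 peaks. At chr5:64660840-64786022, rank 8, it was 3.91, 45.6 and 54.8 kb. Of its 58 peaks at 72 h, 50 touched no proliferation peak. These clusters had 17.0 and 14.0 times their proliferation length at 72 h, the highest ratios of the 10.

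Another 3 clusters of this range had 2.95 to 5.04 times their proliferation length at 72 h. At chr2:29475195-29588158, rank 12, the lengths were 10.4, 54.9 and 52.6 kb at proliferation, 36 h and 72 h. At chr15:99625831-99734588, rank 13, the lengths were 13.6, 46.9 and 51.8 kb, and its strongest summit had 95, 122 and 141 fragments at proliferation depth. The local background of this cluster was high in each library, at 2.87, 1.60 and 1.85 times the genome background. The cluster at chr15:27395245-27528269, rank 14, had 17.4, 60.4 and 51.3 kb, so that it was longest at 36 h.

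The remaining 5 of this range had 2.71 times their proliferation length or less. At chr16:92897627-93008639, rank 6, the length was 20.8, 49.0 and 56.4 kb at proliferation, 36 h and 72 h, and the span joined 4 separate groups of proliferation peaks. At chr8:87232873-87339538, rank 7, it was 29.2, 65.5 and 55.4 kb, the longest of the 10 at 36 h. The cluster at chr1:194556333-194684558, rank 10, had 26.7, 46.4 and 53.4 kb. Least change was seen at chr11:86382043-86443448, rank 9, with 47.3, 47.8 and 54.2 kb, and at chr2:27627412-27773750, rank 11, with 39.6, 45.7 and 53.1 kb. On chromosome 11 the number of peaks was 31, 34 and 21 and the widest peak 12508, 13505 and 13464 bp, so fewer peaks covered more length at 72 h.

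**Figure D4:**
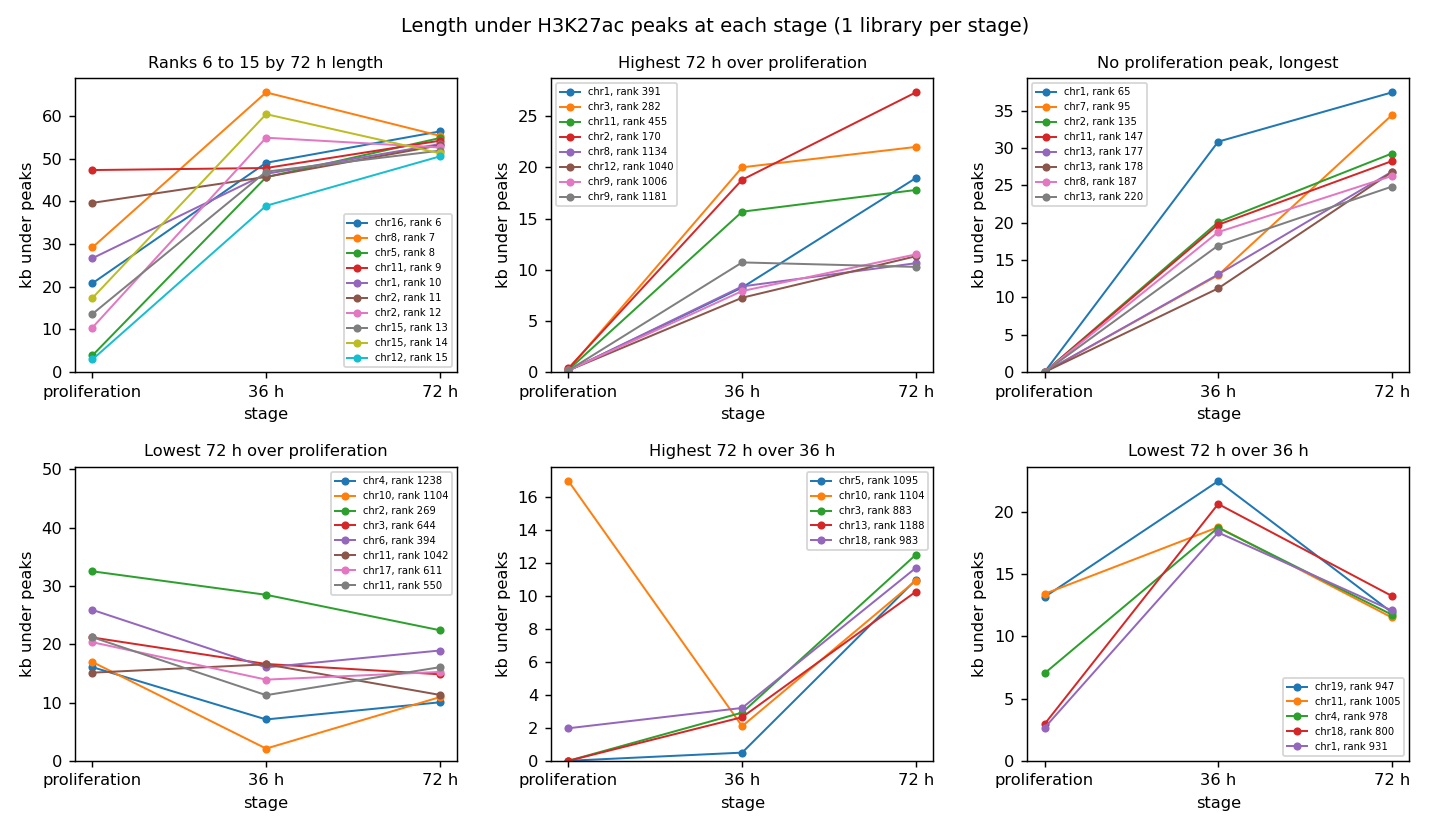
Length under H3K27ac peaks in kb at proliferation, 36 h and 72 h for the clusters named in the text, 1 line per cluster and 1 library per stage, in 6 panels by the way they were picked. The clusters of rank 6 to 15 start between 2.98 and 47.3 kb in proliferation and end between 50.5 and 56.4 kb at 72 h.

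Long clusters without any proliferation peak had none close to the span either, which follows in part from the stitching. The 54 such clusters had a median of 13.2 kb at 72 h, against 7.84 kb at 36 h, and 17 of them had at least 10 kb at 36 h. Their strongest 72 h summits ranged from 30.1 to 114 fragments at proliferation depth, with a median of 64.8, and the strongest 36 h summits from 10.9 to 86.3, with a median of 47.8. The nearest proliferation peak lay at a median of 50.1 kb from the span, from 13.7 to 411 kb, and over 20 kb away for 46 of the 54.

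The longest of them, at chr1:66964086-67039779, had 37.4 kb in 40 peaks at 72 h against 30.9 kb in 31 peaks at 36 h, with the nearest proliferation peak 45.2 kb away. It was followed at chr7:56580674-56658794 by a cluster with 34.4 kb at 72 h, against 12.98 kb at 36 h. At chr2:180094016-180136718 the length was 29.3 kb at 72 h against 20.1 kb at 36 h, and the widest 72 h peak there reached 9083 bp, compared with 3447 bp at 36 h. The step from 36 h to 72 h was 2.65 times on chromosome 7, 1.21 times on chromosome 1 and 1.46 times on chromosome 2.

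The next 5 had 24.8 to 28.2 kb at 72 h. At chr11:114651339-114715184 the length was 28.2 kb at 72 h, against 19.7 kb at 36 h. Chromosome 13 held 3 of them. At 72 h and 36 h, the lengths were 26.8 and 13.1 kb from 12399402 to 12487991, 26.8 and 11.2 kb from 46583478 to 46643516, and 24.8 and 16.9 kb from 9295023 to 9378874. The cluster at chr8:13178715-13229169 had 26.3 kb at 72 h, against 18.7 kb at 36 h. In all 8 clusters the median local background at 72 h was at most 1.36 times the genome background.

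Among clusters with at least 1 proliferation peak, the highest ratios rested on a single narrow peak in proliferation. The first 8 had 61.9 to 129 times their proliferation length at 72 h, and each had 1 proliferation peak of 147 to 378 bp, when the shortest peak of the list was 147 bp. The ratio of such a cluster rests on a single call. At chr1:187549619-187591660 the length was 0.147, 8.27 and 18.96 kb at proliferation, 36 h and 72 h. At chr3:101297979-101342391 it was 0.271, 20.02 and 22.01 kb, and at chr11:29664610-29710565 it was 0.230, 15.7 and 17.8 kb. The longest of the 8, at chr2:101913806-101998630, had 0.378, 18.8 and 27.3 kb, with 37 of its 38 peaks at 72 h touching no proliferation peak. The other 4, on chromosome 8 from 15049878, chromosome 12 from 33657037 and chromosome 9 from 40886009 and from 26951456, had 10.3 to 11.5 kb at 72 h. Only 21 of the 331 clusters at 4 times or more with a proliferation peak had just 1, and the widest proliferation peak of the 331 had a median of 879 bp.

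A small set of long 72 h clusters had been longer in proliferation. The 48 clusters had a median of 15.9, 13.8 and 13.8 kb at proliferation, 36 h and 72 h, and 24.98% of their proliferation length was not under a 72 h peak. In 26 of them the length was lowest at 36 h, in 8 it fell at both steps, and in 14 it was highest at 36 h. Most of the 72 h length, 86.6%, lay where a proliferation peak had been, and 4.55% lay in peaks that touched none.

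Their lowest ratios were 0.62 at chr4:88669818-88708947, with 16.1, 7.10 and 10.04 kb at proliferation, 36 h and 72 h, and 0.64 at chr10:120052821-120104005. The chromosome 10 cluster is described with those that dipped at 36 h. At chr2:109970419-110045231, the length fell at both steps, to 28.5 kb at 36 h and 22.4 kb at 72 h, against 32.5 kb in proliferation, and its widest peak was 5215, 4827 and 2786 bp. At chr3:122159265-122224740 it was 21.2, 16.6 and 14.8 kb, with summits of 93, 58.7 and 51.1 fragments at proliferation depth. In both, summits and lengths were lower at 72 h than in proliferation, with 83.96 fragments against 99 on chromosome 2.

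Among the other 4 of the lowest 8, the cluster at chr6:135242234-135320473 had 25.9, 16.03 and 18.9 kb at proliferation, 36 h and 72 h. The cluster at chr11:8556562-8609473 had 15.1, 16.6 and 11.3 kb, and was the only one of the 4 that was longest at 36 h. Lengths at chr17:14744794-14811109 were 20.3, 13.9 and 15.2 kb, and those at chr11:70002134-70053972 were 21.2, 11.3 and 16.1 kb. On chromosome 6 no 72 h peak was without a proliferation peak, and the number of peaks was 47 in proliferation, 29 at 36 h and 29 at 72 h.

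A dip at 36 h, by at least 1.5 times from proliferation and with a rise of at least 1.5 times to 72 h, was seen in 11 clusters (0.886%, 0.443 to 1.58%), compared with 10.9% of all 72 h clusters and 3.52% of those of 5 to under 10 kb. The 36 h library had the highest recovered depth of the 3. Its signal over the regions called at every stage was 1.04 times that of proliferation, against 1.18 at 72 h. Whether either bears on the dips was not tested. The deepest dip was at chr10:120052821-120104005, with 16.9, 2.09 and 10.9 kb at proliferation, 36 h and 72 h, in 19, 6 and 23 peaks. Its strongest summit had 61 fragments in proliferation, 19.3 at 36 h and 31.9 at 72 h, all at proliferation depth. Of its 72 h length, 10345 bp lay under proliferation peaks and 266 bp in peaks that touched none, so most of its 72 h length lay in stretches already called in proliferation. The strongest summit at proliferation depth was higher at 72 h than in proliferation in 5 of the 11 dips and lower in 6. Values of 2 others, chosen after they were seen, follow, both from those with the higher 72 h summit. The span at chr9:57785651-57822620 had 15.97, 6.08 and 14.9 kb at proliferation, 36 h and 72 h, with summits of 64, 23.5 and 64.8 fragments. The span at chr15:62114056-62166514 had 15.3, 7.18 and 12.1 kb, with summits of 94, 74.6 and 109 fragments. Its local background was 2.84, 2.4 and 1.85 times the genome background, and the 36 h value was the highest of all long clusters. The count of dips depended on the settings, with 3 clusters when only peaks with a −log10 q of at least 5 were used.

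The opposite course, up by at least 1.5 times at 36 h and down by at least 1.5 times at 72 h, was seen in 6 clusters (0.483%), compared with 1.31% of all. The strongest fall from 36 h was at chr19:44973720-45008243, with 13.1, 22.5 and 11.9 kb at proliferation, 36 h and 72 h. Its widest peak was 1934, 6052 and 1686 bp, while its strongest summit had 80, 81.3 and 85.8 fragments. That summit is a single peak near the end of the span, and height did differ elsewhere. The widest 36 h peak had 45.3 fragments, and the 72 h peaks in the same stretch had at most 21.9. At chr18:5583195-5632045 the lengths were 2.94, 20.6 and 13.2 kb, and at chr1:157057347-157092340 they were 2.65, 18.3 and 12.1 kb. At chr4:144570806-144604152 they were 7.02, 18.7 and 11.7 kb. A cluster at chr11:57487463-57535542 had 13.4, 18.8 and 11.5 kb, with a smaller first step.

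The 5 clusters with the highest 72 h over 36 h ratios had 10.2 to 12.5 kb at 72 h, and 3 of them had no proliferation peak. The highest ratio of 72 h over 36 h was 22.1 at chr5:36091735-36144295, with no proliferation peak, 10.96 kb in 23 peaks at 72 h and 0.495 kb in 3 peaks at 36 h. Its strongest summit had 30.1 fragments at 72 h, against 10.9 at 36 h. Also without a proliferation peak, the cluster at chr3:84911762-84939640 had 12.5 kb at 72 h, against 2.92 kb at 36 h. The cluster at chr13:46376532-46400110 had 10.2 kb at 72 h, against 2.64 kb at 36 h. The chromosome 13 cluster had 8 peaks at 72 h, the widest of 3402 bp. The cluster at chr18:62041104-62095568 had 1.97, 3.20 and 11.7 kb at proliferation, 36 h and 72 h.

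**Figure D5:**
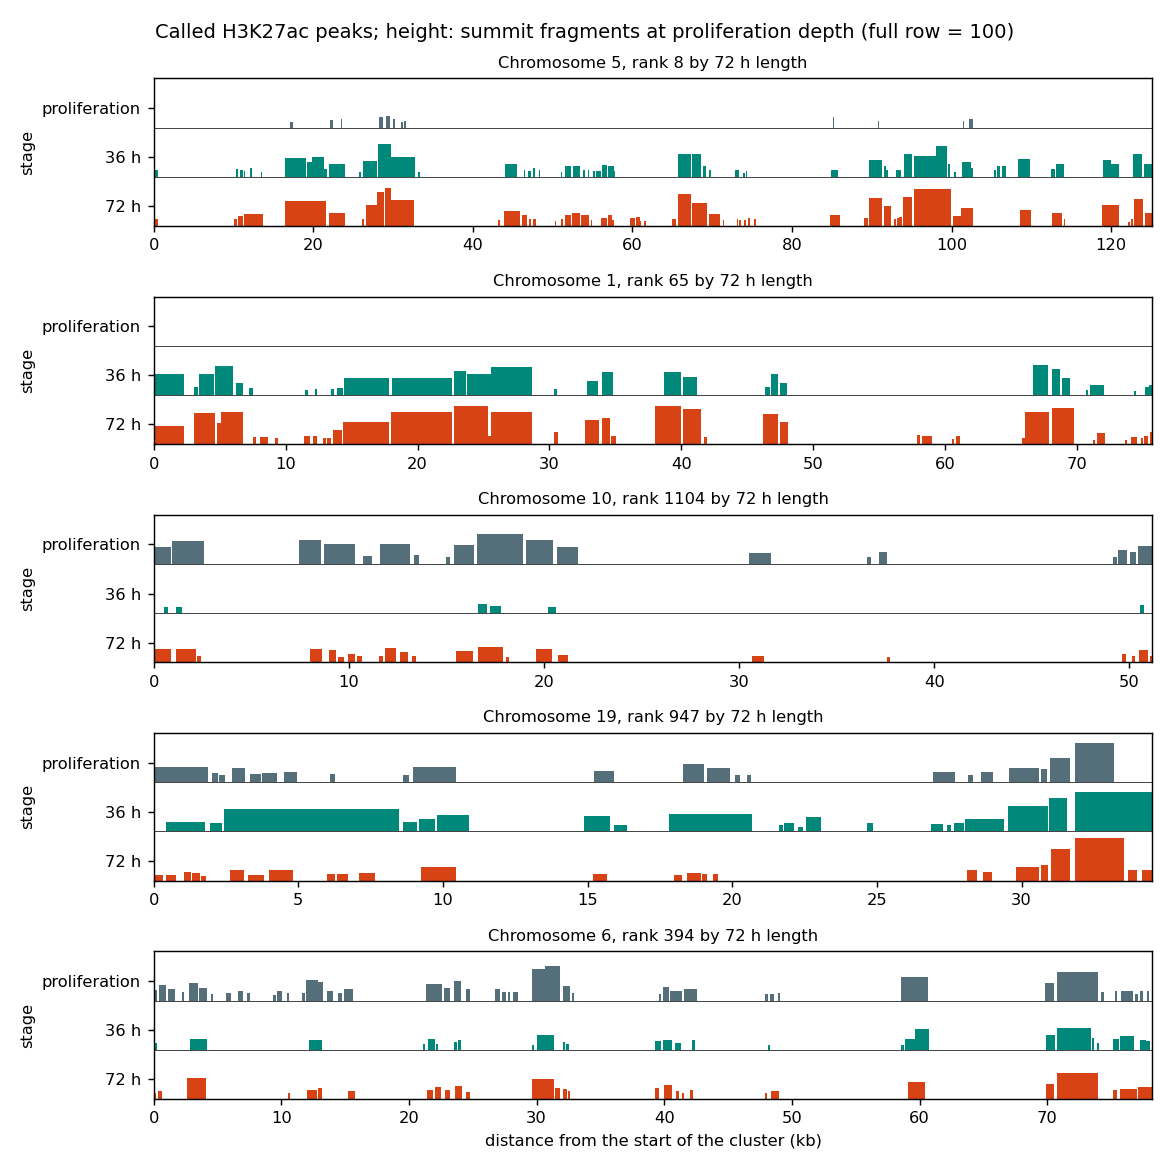
Called H3K27ac peaks in the spans of 5 clusters at proliferation, 36 h and 72 h, with distance from the start of the cluster in kb on the x axis and, for each peak, a bar as wide as the peak and as high as its summit fragments at proliferation depth (a full row is 100 fragments). Chromosome 5 (rank 8) shows growth by 36 h, chromosome 1 (rank 65) has no proliferation peak, chromosome 10 dips at 36 h, chromosome 19 is longest at 36 h and chromosome 6 is longest in proliferation.

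Long clusters were found on every autosome and on chromosome X. Chromosome 11 held 111, chromosome 2 held 110 and chromosome 1 held 97, while chromosome X held 8. The clusters held 48.2% of the 72 h length on chromosome 19, 44.2% on chromosome 11 and 13.1% on chromosome X. The median 72 h over proliferation ratio ranged from 2.07 on chromosome 5 to 3.36 on chromosome 10, and the share at 4 times or more, clusters with no proliferation peak included, from 20.3% on chromosome 15 to 40.0% on chromosome 2.

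Neighbouring clusters resembled each other in growth. In 277 pairs the next long cluster began within 100 kb, and the 72 h over proliferation ratios of the 2 had a Spearman rho of 0.33. In the 454 pairs of successive clusters more than 1000 kb apart it was 0.01. Both clusters were at 4 times or more in 44 of the 277 pairs, 1 was in 86 and neither in 147. These are descriptions over pairs that share the same libraries.

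The outlines of the clusters depended on the gap allowed in stitching. With gaps of up to 5 kb, 172 of the 1241 clusters stayed in 1 piece, the median cluster fell into 3 pieces and the highest number was 13. A piece of at least 10 kb remained in 665 (53.6%, 50.8 to 56.4%). When depth, signal at shared regions and local background of the later lists were matched to proliferation, an alternative added after the data had been seen, 1099 clusters met the minimum, 61.1% of them at 2 times or more and 30.0% at 4 times or more. Peaks kept their called width in that setting, so narrower calls at a higher background were not modelled.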

How the data were processed

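The authors deposited 1 H3K27ac peak list per stage in narrowPeak format. BWA, MACS2, deepTools and build mm9 are named per the submitters' processing notes, without versions, settings or control. In the standard narrowPeak layout, deposited rows hold a fold enrichment (a ratio), a −log10 p and −log10 q, a score (not used) and a summit offset.

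Peaks were stitched and lengths computed with Python 3.11.15, numpy 2.4.6 and pandas 2.3.3, and exact binomial intervals with scipy 1.17.1. Summit fragments and local background were solved from the deposited fold and −log10 p, assuming MACS2's formulas and the input as control. The solution returned the −log10 p to within 0.03% of its value for 100% of peaks. Relative depths came from the genome background over the scale factor. Stitching and recovery were tested on simulated data.

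The clusters named were those of rank 6 to 15 by 72 h length, the 8 highest and 8 lowest ratios of 72 h over proliferation, the 8 longest with no proliferation peak, and the 5 highest and 5 lowest ratios of 72 h over 36 h. No mm9 sequence or annotation was used here, so the planned gene lists, markers and motifs were not applied. The factor of 1.5 for courses over time was chosen after the values were seen. The cluster rule, classes and lists were chosen with earlier results of these data known. Input libraries were not analysed here. Alternatives covered the gap, minimum, q cutoff, list size, choosing list and depth.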

Additional observations from a re-analysis of the deposited data

How the results depend on the processing

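The main values were 1241 clusters, 62.9% at 2 times or more and 31.0% at 4 times or more for 72 h over proliferation, 3.87% below 1, 57.5% at 2 times or more for 36 h over proliferation, and 27.8% with less length at 72 h than at 36 h. With gaps of up to 5 kb there were 722 clusters, 34.3% of them at 4 times or more. With a minimum of 20 kb there were 351, with 67.5% at 2 times or more, 2.85% below 1 and 63% at 2 times or more at 36 h. With a −log10 q of at least 5, 35.7% were at 4 times or more. With lists equal in number, 56.4% were at 2 times or more, 27.5% at 4 times or more, 5.60% below 1 and 51.1% at 2 times or more at 36 h. Spans from all 3 lists together gave 58.1%, 28.4% and 7.87% for the first 3 shares, and 37.5% with less length at 72 h than at 36 h. Members chosen on the 36 h list gave 54.9%, 24.6% and 5.87%, and 54.4% with less length at 72 h. The cause of these moves was not tested, apart from the choosing list, which differs by construction. Thinning to the proliferation depth, and the added matching of depth, signal and background, left every share within its main interval. Both settings dropped whole peaks and kept the called width of the rest, so most of the length under peaks remained. The shares could therefore move little, and they cannot show whether depth or background changed the width of the calls. The 11 dips at 36 h numbered from 0 to 16 over the alternatives, and the 54 clusters with no proliferation peak from 8 to 53. No paired analysis was possible because each stage had 1 library. With no replicate library, differences between stages cannot be set against the spread between cultures.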
